A study of Brachypodium distachyon with 20 samples.

Results

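The last step of embryogenesis, from leaf late (LEL) to mature (MAT) embryos of Brachypodium distachyon, was followed in 4 of the 20 libraries of the series, 2 of each stage. All genes above 0 log2 CPM (CPM is the read count scaled per library, and 0 on the log2 scale is 1 CPM) in at least 2 of the 20 libraries were taken, which gave 22902 of the 23749 genes in the table. Both stages came from Bd21, the reference line of this wild grass, grown in long days and pollinated by hand, with no mutation or treatment in either group. By the labels the groups differ in developmental stage alone. Each library was made from a pool of hand-dissected whole embryos, so scutellum, shoot and root were measured together, and fewer cells of a type and less RNA per cell cannot be told apart. Libraries of earlier stages (TCQ, two-cell or quadrant; PEM, pro-embryo; TRA, transition; LEE, leaf early; LEM, leaf middle), of early and late endosperm (EEN, LEN) and of seed coat (SEC), 2 each, are used for comparison. By the age of the embryo beside it, EEN matches TRA, while LEN and SEC match LEL.

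At the end of embryogenesis a grass embryo stops building organs. Growth and cell division cease, reserves are laid down in the scutellum, and the embryo acquires dormancy and the ability to survive drying, under the control of abscisic acid. The regulators that set up the shoot and root meristems, the vasculature and the ground tissue act earlier, and many of them are known from Arabidopsis. Genes of maturation itself, such as those of late embryogenesis abundant proteins or oleosins, were not analysed here, since no table at hand names them by identifier. The label MAT was therefore not checked against maturation markers.

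About as many genes rose as fell from LEL to MAT, but the large changes were mostly falls. Of the 22902 genes, 5646 (24.7%) were higher at MAT and 6379 (27.9%) lower, 52.5% in all (limma, adjusted p at 0.05). The median fall was larger (-1.16 log2) than the median rise (0.82 log2). By at least 2 log2, a factor of 4 or more, 1284 genes fell (5.61%) and 344 rose (1.5%), and by at least 4 log2, 131 fell and 35 rose. Falls of this size outnumbered rises under each scaling of the libraries tried, with 991 against 487 when the library medians were set equal. The near balance of all calls did depend on the scaling. The median gene changed by -0.01 log2 as deposited but by 0.24 with equal medians, and rises made up 47.0% of the calls as deposited and 62.0% with equal medians. In the step before, from LEM to LEL, which shares the LEL libraries, 694 genes rose and 155 fell by at least 2 log2.

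**Figure D1:**
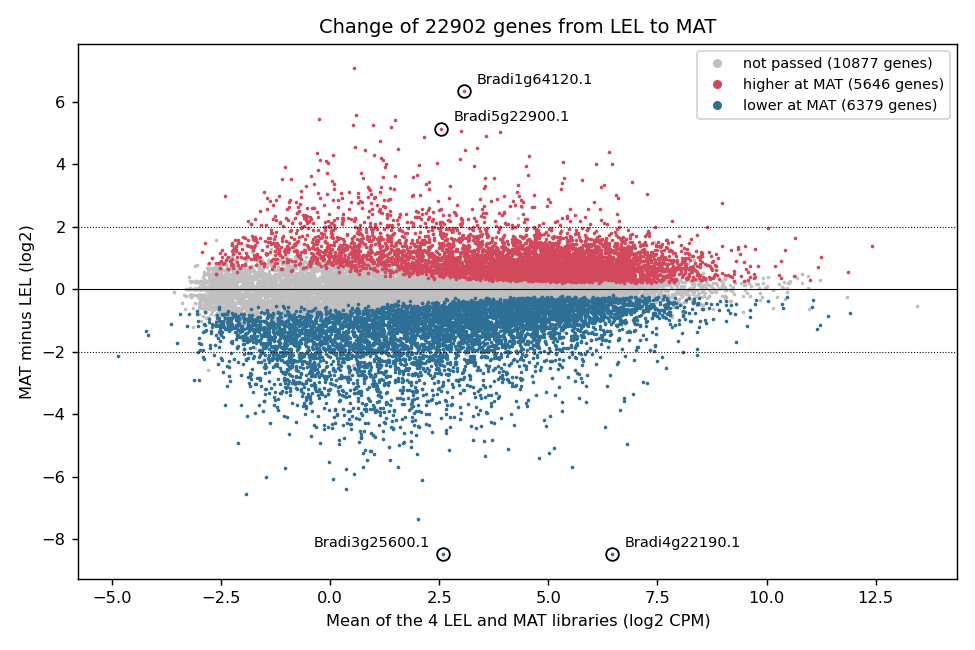
Change of each of the 22902 tested genes from LEL to MAT (vertical axis, log2) against its mean over the 4 LEL and MAT libraries (horizontal axis, log2 CPM). Each point is a gene, coloured by the limma call, dotted lines stand at 2 log2 in either direction, and circles mark the identifiers named in the text. Below the lower line lie 1284 called genes and above the upper line 344.

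The steepest falls among well expressed genes were those of transcripts abundant in embryos from PEM to LEL. Bradi4g22190.1 was at 10.88 and 10.50 log2 CPM in the LEL libraries and at 2.49 and 1.95 in the MAT libraries. It had been at 9.95 to 10.99 in the mean of every earlier stage, and was low in endosperm (0.64 in EEN, -0.14 in LEN) and at 3.90 in SEC. Its change was -8.47 log2 (SE 0.17, adjusted p = 5.7e-14 from limma), against -0.07 from LEM to LEL. Bradi3g25600.1 was at 6.74 and 6.89 at LEL and at -1.71 and -1.62 at MAT, a change of -8.48 (SE 0.35, adjusted p = 7.7e-11). This gene had already changed by -1.90 in the step before (adjusted p = 0.0005), from 8.72 at LEM, and was below 0 log2 CPM in the mean of both endosperm ages and SEC.

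The steepest rises among well expressed genes were those of transcripts that endosperm also held. Bradi1g64120.1 was at -0.07 and -0.13 log2 CPM at LEL and at 6.22 and 6.25 at MAT, a rise of 6.34 log2 (SE 0.29, adjusted p = 2.7e-10 from limma). It was listed at its lowest value in both LEM libraries, at 5.71 in LEN, and below 0 in EEN and SEC. Bradi5g22900.1 was at 0.07 and -0.15 at LEL and at 5.12 and 5.08 at MAT (rise of 5.14, SE 0.31, adjusted p = 4.3e-09). It was at 4.75 in EEN and 4.82 in LEN, but at -0.59 in SEC. These 4 identifiers have the largest changes among called genes of at least 5 log2 CPM in the higher stage, and no name or description was found for them.

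Of 16 patterning regulators, 8 passed the test, all of them lower at MAT. Embryo patterning genes that the study labels by Arabidopsis names were followed where an identifier was at hand. LOG3 and TMO5, vascular genes of the same set, were not analysed here. Of the 16, 8 fell from LEL to MAT, 8 did not pass the test and 0 rose, against 27.9% of all tested genes lower and 24.7% higher. Their median change was -1.08 log2, with -0.01 over all tested genes. They were picked by the study for their roles in early embryos and chosen here with earlier results known, so the count says nothing of genes in general. Genes of 4 of the 5 groups, all but the quiescent centre, were among those that fell.

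**Figure D2:**
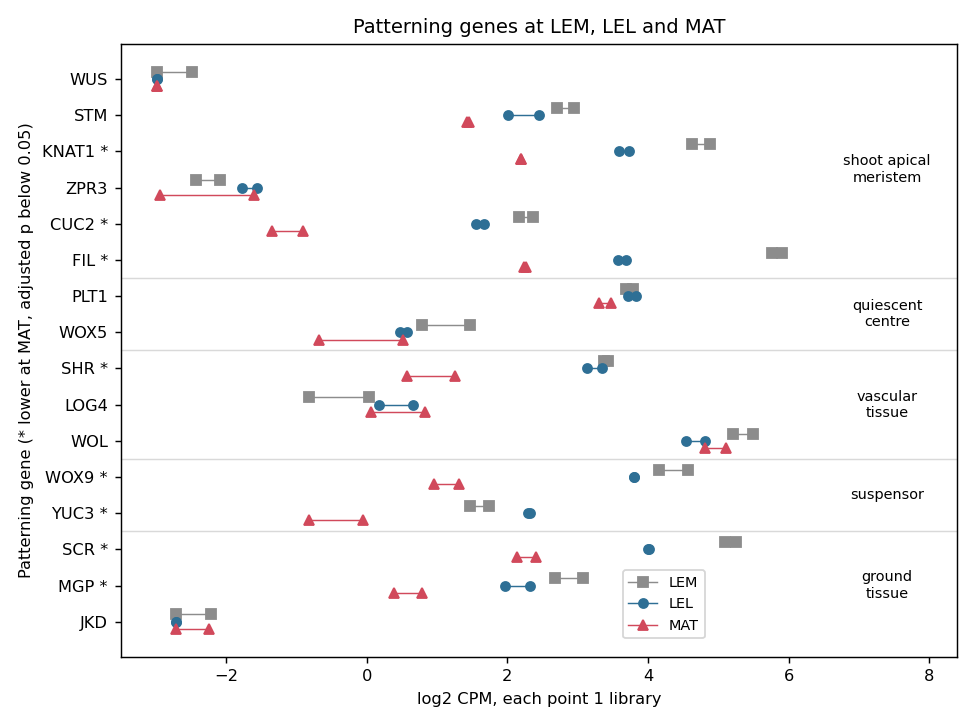
Levels of 16 patterning genes (log2 CPM, horizontal axis) at LEM, LEL and MAT. Each point is 1 library, lines join the 2 libraries of a stage, and an asterisk marks the 8 genes that were lower at MAT with an adjusted p below 0.05.

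Among the 6 genes of the shoot apical meristem, CUC2, KNAT1 and FIL fell. CUC2 (Bradi1g41712.2), a NAC factor that keeps organs apart at their boundaries, was at 1.66 and 1.55 log2 CPM at LEL and at -0.90 and -1.35 at MAT. It fell by 2.73 log2 (SE 0.23, adjusted p = 1.2e-07 from limma), to below 1 CPM. KNAT1 (Bradi1g10047.2), a KNOX homeobox gene of undifferentiated shoot cells, was at 3.74 and 3.59 at LEL and at 2.19 and 2.20 at MAT (change of -1.47, SE 0.29, adjusted p = 0.00049). FIL (Bradi3g30410.1), a YABBY factor of the lower side of leaves, was at 3.57 and 3.69 at LEL and at 2.24 and 2.27 at MAT (change of -1.38, SE 0.39, adjusted p = 0.0076). KNAT1 and FIL thus remained above 1 CPM in mature embryos, with LEL and MAT libraries that did not overlap.

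STM, ZPR3 and WUS did not pass. STM (Bradi1g57607.1), the KNOX gene that maintains the shoot meristem, was at 2.45 and 2.01 log2 CPM at LEL and at 1.45 and 1.43 at MAT, a difference of -0.79 (SE 0.44, adjusted p = 0.15 from limma). STM passed under 3 of the alternatives, with an adjusted p from 0.0073 to 0.033. All MAT values lay below all LEL values here too, as they did for 37.8% of the tested genes. ZPR3 (Bradi4g42250.1), a small inhibitor of class III homeodomain factors, was below 0 in the 4 libraries, at -1.78 and -1.56 at LEL and at -1.60 and -2.94 at MAT, the last being its lowest value in the series. WUS (Bradi5g25113.1), the homeobox gene of the stem cell niche, was listed at its lowest value of -2.98 in both LEL and both MAT libraries, so no fold is given.

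Neither of the 2 genes of the root quiescent centre passed as fitted, and the call of PLT1 depended on the setting. PLT1 (Bradi5g14960.1), an AP2 factor of root stem cells, was at 3.83 and 3.71 log2 CPM at LEL and at 3.48 and 3.31 at MAT (difference of -0.38, SE 0.16, adjusted p = 0.056 from limma). WOX5 (Bradi2g55270.1), a homeobox gene that keeps root stem cells undifferentiated, was at 0.47 and 0.57 at LEL and at 0.52 and -0.68 at MAT (difference of -0.60, SE 0.30, adjusted p = 0.11). The MAT values of PLT1 lay below its LEL values, while those of WOX5 overlapped. PLT1 passed under 5 of the alternatives, with an adjusted p from 0.012 to 0.049. The difference of WOX5 rests on MAT replicate 2, with -1.20 (adjusted p = 0.0016) without MAT replicate 1 and 0.00 without MAT replicate 2. The same held for ZPR3, with -1.28 (adjusted p = 0.018) without MAT replicate 1 and 0.07 without MAT replicate 2.

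Of the 3 vascular genes followed, SHR fell, while WOL and LOG4 did not pass. SHR (Bradi1g23060.1), a GRAS factor made in the stele that moves to the layer around it, was at 3.34 and 3.13 log2 CPM at LEL and at 1.26 and 0.58 at MAT (change of -2.32, SE 0.21, adjusted p = 2.9e-07 from limma). WOL (Bradi3g59820.1), a cytokinin receptor, was at 4.54 and 4.81 at LEL and at 4.80 and 5.11 at MAT (difference of 0.28, SE 0.23, adjusted p = 0.33). LOG4 (Bradi2g42190.1), an enzyme that releases active cytokinin, was at 0.17 and 0.66 at LEL and at 0.05 and 0.83 at MAT, with overlapping libraries (difference of 0.03, SE 0.30, adjusted p = 0.98).

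Of the 3 ground tissue genes, SCR and MGP fell and JKD did not pass. SCR (Bradi4g44093.1), the GRAS factor that SHR acts with, was at 4.02 and 3.996 log2 CPM at LEL and at 2.40 and 2.14 at MAT (change of -1.74, SE 0.13, adjusted p = 4.2e-08 from limma). MGP (Bradi2g08460.1), a zinc finger factor that binds both, was at 2.32 and 1.97 at LEL and at 0.79 and 0.39 at MAT (change of -1.56, SE 0.27, adjusted p = 0.00021). JKD (Bradi3g26910.2), a zinc finger factor related to MGP, was listed at its lowest value of -2.71 in both LEL libraries and MAT replicate 2, and at -2.24 in MAT replicate 1, so it was too low to follow.

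Both genes assigned to the suspensor, the stalk of the early embryo, fell steeply. WOX9 (Bradi2g16444.1), a homeobox gene of early embryo growth, was at 3.80 in both LEL libraries and at 1.31 and 0.95 log2 CPM at MAT (change of -2.67, SE 0.16, adjusted p = 3.3e-09 from limma). YUC3 (Bradi5g01327.2), an enzyme of auxin synthesis, was at 2.30 and 2.33 at LEL and at -0.83 and -0.06 at MAT (change of -2.76, SE 0.28, adjusted p = 1e-06). YUC3 was left below 1 CPM in both MAT libraries. SEC held YUC3 at 2.69, close to its LEL level, and LEN at -2.78.

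For 4 of these genes the change was more negative in the last step than in the step before. The change from LEL to MAT was compared with that from LEM to LEL in the same fit, as the difference between both changes. It passed for 5874 of all tested genes (25.6%), of which 15.2% went down more (or up less) in the last step and 10.4% the reverse. Among the 16 genes it passed for YUC3, SHR, WOX9 and CUC2. From LEM to LEL, 7 of the 16 had already fallen and LOG4 had risen. Over all tested genes 4292 were lower and 4203 higher in that step. WOX9, CUC2, SHR and YUC3 had declined before LEL too, with means at TRA of 9.95, 5.71, 5.38 and 3.35 log2 CPM. At LEM their means were 4.36, 2.26, 3.40 and 1.60 in the same order. YUC3 went from 0.71 in the step before (SE 0.28, adjusted p = 0.059) to -2.76, a difference of -3.47 (SE 0.49, adjusted p = 0.00013 from limma). SHR went from -0.16 to -2.32 (adjusted p of the difference 0.00052), WOX9 from -0.57 to -2.67 (adjusted p = 6.5e-05) and CUC2 from -0.66 to -2.73 (adjusted p = 0.0013). FIL, in contrast, had its larger change in the step before, at -2.20 (SE 0.39), but the difference between its steps did not pass (0.83, SE 0.67, adjusted p = 0.41). SCR changed by -1.17 in the step before (adjusted p = 5.9e-06) and by -1.74 in the last, a difference of -0.57 that missed the threshold (adjusted p = 0.079). These are changes per step, since the days between stages were not used here. The count of 5874 rests partly on LEL replicate 1, and was 2885 without that library.

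Strongly changed genes were next described in the groups that the comparison did not use. The 344 genes that rose by at least 2 log2 were low throughout earlier embryogenesis, with medians of 0.05 log2 CPM at TCQ, -1.04 at TRA and -1.48 at LEM, against 2.89 to 2.97 over all tested genes at these stages. At LEL, which helped to choose them, their median was 0.08, so low levels at nearby stages follow in part from the choice. Genes of like LEL level were not set beside them. The 344 genes were likewise low in EEN (median 0.10) and SEC (0.60), but at 2.74 in LEN, close to the 2.88 of all tested genes. At 3 log2 CPM or more were 161 of the 344 genes in LEN (46.8%), 64 in EEN (18.6%), 86 in SEC (25%) and 19 at LEM (5.52%). Over all tested genes these shares were 48.5% in LEN, 47.3% in EEN, 51.5% in SEC and 49.7% at LEM. Of the 5 stages from TCQ to LEM, TCQ was the highest for 156 of the 344 genes (45.3%, against 27.2% of all tested genes), and LEM the lowest for 148 (43.0%, against 31.9%).

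The 1284 genes that fell by at least 2 log2 had been near the median of all tested genes in earlier embryos. Their medians were 2.82 log2 CPM at TCQ, 3.29 at TRA and 3.32 at LEM, and -0.39 at MAT. In EEN and SEC their medians were 0.88 and 1.54, below those of all tested genes (2.74 and 3.14), and in LEN the median was -0.36. Both MAT libraries were at or under 1 CPM for 670 of the 1284 genes, and 54 were listed at a shared lowest value in both, so their changes have no clear size. Of the 1284, 187 had been at 5 log2 CPM or more at LEL.

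**Figure D3:**
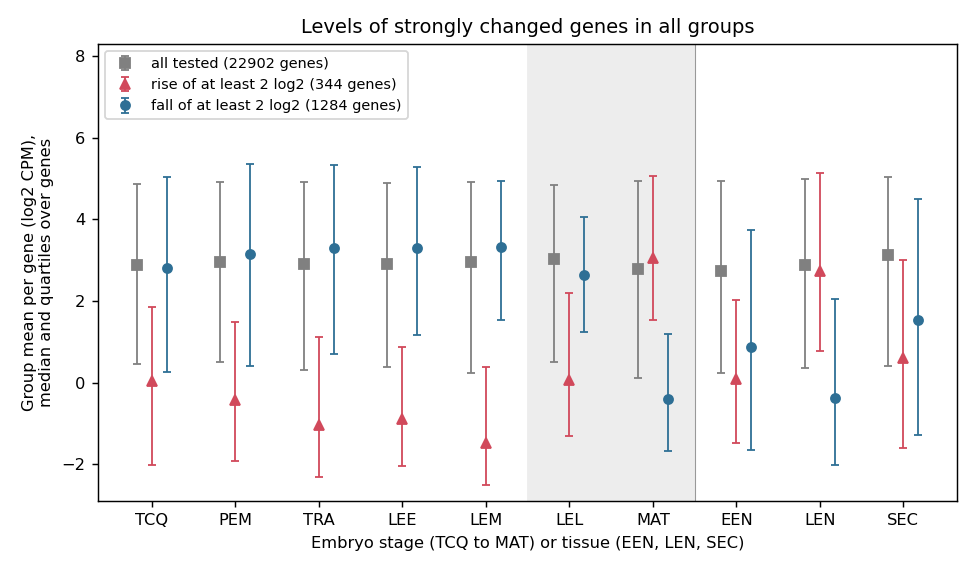
Levels of the 344 genes that rose and the 1284 that fell by at least 2 log2 from LEL to MAT, with all 22902 tested genes beside them. Points are medians and bars quartiles over genes of the mean of the 2 libraries (log2 CPM); the shaded stages, LEL and MAT, chose the genes. The genes that rose stand near the median of all genes in LEN (2.74 against 2.88) and far below it in EEN (0.10 against 2.74).

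Genes that rose in the embryo were more often higher than lower in older endosperm, and genes that fell were more often lower. The EEN and LEN libraries share no library with LEL and MAT, and over all tested genes 62.1% were called between LEN and EEN, 31.3% higher and 30.9% lower in LEN. Of the 5646 genes that were higher at MAT, 2781 (49.3%) were higher in LEN and 1109 (19.6%) lower. Of the 6379 genes that were lower at MAT, 3008 (47.2%) were lower in LEN and 1152 (18.1%) higher. Of the large rises, 249 of 344 (72.4%) were higher in LEN and 24 (6.98%) lower. Of the large falls, 636 of 1284 (49.5%) were lower in LEN and 155 (12.1%) higher, and whether this share differs from that of all falls was not tested. Taken from the endosperm side, 38.8% of the genes higher in LEN and 15.7% of those lower in LEN were higher at MAT. These shares are a description, since genes are not independent of each other and no test of the overlap was made.

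An earlier embryo step was set beside it. From LEE to LEM, which also shares no library with LEL and MAT, 51.9% of the tested genes were called, 25% higher and 26.9% lower. Among genes higher at MAT, 34.0% had been higher and 21.7% lower at LEM, and among genes lower at MAT 25.6% and 32.9%. Of the 344 large rises, however, 37 (10.8%) had risen and 117 (34.0%) had fallen from LEE to LEM. Of the 1284 large falls, 400 (31.2%) had risen and 359 (28.0%) had fallen.

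**Figure D4:**
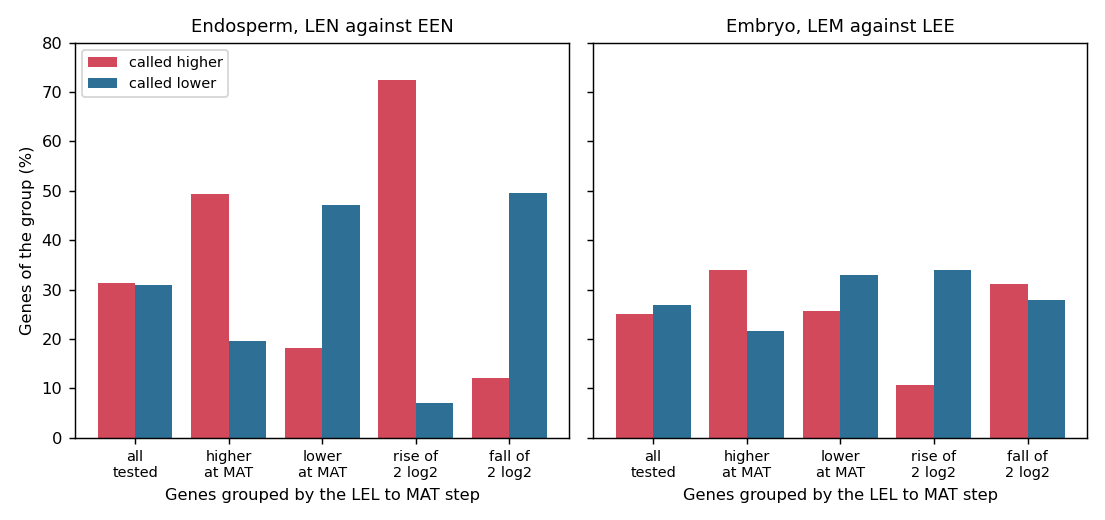
Share of genes called higher or lower in LEN than in EEN (left) and in LEM than in LEE (right), in percent of the genes grouped by their change from LEL to MAT; bars of all tested genes give the background. Of the genes that rose by 2 log2 or more, 72.4% were higher in LEN and 10.8% were higher at LEM.

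Embryos were dissected out of the grain by hand, so the levels of genes of the tissues around them were looked up in the LEL and MAT libraries. The paper concluded that its embryo samples held minimal contamination. It drew on marker genes of endosperm and seed coat and on a principal component analysis, which set these tissues apart from embryos. Its methods also describe washing and inspecting the embryos. For each tissue a list was made of genes with at least 8 log2 CPM there and at least 6 log2 CPM above every embryo stage from TCQ to LEM. The 49 genes of LEN summed to 762 and 557 CPM in the LEL libraries and to 2090 and 1902 CPM in the MAT libraries, against 71461 and 80462 CPM in LEN itself. Of the 49 genes, 16 were higher at MAT (32.7%, background 24.7%) and 2 lower, 27 were at or under 1 CPM in both MAT libraries, and the median of the list was -0.82 and -0.37 log2 CPM at MAT, against -1.02 and -0.32 at LEL. The 3 highest genes held 65.5% and 62.7% of the sum at LEL, 50.7% and 53.3% at MAT, and 38.7% and 38.1% in LEN. The 65 genes of SEC summed to 422 and 345 CPM at LEL and to 911 and 785 CPM at MAT, with 15 higher (23.1%), 20 lower and 39 at or under 1 CPM in both MAT libraries. The share higher is near the 24.7% of all tested genes. The 3 highest genes of this list held 66.4% and 64.0% of the sum at LEL, 73.9% and 71.6% at MAT, and 28.1% and 24.7% in SEC itself. The 28 genes of EEN summed to 32.3 and 32.6 CPM at LEL and 71.8 and 62.3 CPM at MAT, with 1 higher (3.57%) and 2 lower, against 24.7% and 27.9% of all tested genes. The highest gene alone held 63.6 and 48.9 CPM of the EEN sums at MAT, and the highest at LEL 14.6 and 12.4 CPM. Rises of at least 2 log2 were called for 8 of the 49 LEN genes, 6 of the 65 SEC genes and 1 of the 28 EEN genes. Over all tested genes the share was 1.5%, so large rises were more frequent in the LEN and SEC lists than in the background. The part of carried tissue in the changes was not tested. Without the genes of the 3 lists 236 of 329 large rises (71.7%) were higher in LEN than in EEN. The lists took out few of the 344 large rises, so this share could hardly move from 72.4%. It therefore has no bearing on carried tissue.

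Few genes went between at or under 1 CPM and 3 log2 CPM or more, a level near the median of all tested genes. At or under 0 log2 CPM in both libraries of LEL and at 3 or more in both of MAT were 14 genes, and 53 made the reverse change, all of them called by limma. Of the 14 genes switched on in this way, 13 had been under 3 log2 CPM in the mean of every stage from TCQ to LEM, 7 reached 3 log2 CPM in LEN, 3 in EEN and 1 in SEC. Of the 53 genes switched off, 49 were at 3 log2 CPM or more at LEM, 42 at LEE and 30 at TCQ, and 27 were so at all 5 stages. In LEN 7 of the 53 reached this level, in EEN 25 and in SEC 12. Over all tested genes 47.3% to 51.5% reached 3 log2 CPM in the mean of each of these groups, so that 7 of 14 in LEN and 25 of 53 in EEN are near the background. Genes of both kinds were chosen by their level at LEL, so their levels at nearby embryo stages follow in part from that choice. With a looser limit, 965 genes were above 1 CPM in both LEL libraries and not in either MAT library, and 359 the reverse.

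Highly expressed genes were the most often lowered. Genes were classed by their level at LEM, which the comparison did not use. Of the 438 genes at 8 log2 CPM or more at LEM, 45.7% were lower and 15.5% higher at MAT, with a median difference of -0.30 log2. Of the 5813 genes from 4 to 6 log2 CPM, 32.7% were lower and 33.6% higher. With library medians set equal, 33.6% of the highest class were lower and 28.8% higher, so the excess of falls shrank but kept its direction. Large rises came mostly from genes under 1 CPM at LEM, with 242 of 344 in this class. The class held 5276 of the 22902 tested genes, and 4.59% of it rose by at least 2 log2, against 1.5% of all tested genes. A gene of this class could pass the filter through the MAT libraries alone, and low genes have more room to rise. The contrast between classes is thus partly set in advance. None of the large rises were among the 438 highest genes.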

How the data were processed

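Embryos of LEL and MAT were compared within all 20 libraries (10 groups of 2, grouped by GEO's labels). The authors amplified the mRNA, used Salmon to count clean reads on the JGI transcripts of Bd21 and normalized the counts (the submitters' processing notes also name CASAVA and Trimmomatic). The deposited values are log2 CPM, read totals were not used here, and with the depth unknown intervals of counting error were not made. For 4781 genes several libraries share the lowest value, a detection limit.

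The log2 values were tested as deposited, with limma 3.58.1 in R 4.3.3. A mean was fitted for each of 10 groups, variances were moderated with a trend (10 residual and 4.82 prior degrees of freedom), and p-values were adjusted by Benjamini-Hochberg over the 22902 tested genes and called at 0.05. In all, 847 genes were left out by the filter. A test on the 4 libraries alone, 2 against 2, could not go below 0.33 by exact permutation. The paper calls the libraries biological replicates, but nothing says that pools came from separate plantings, and p-values cover only the spread seen between libraries, which may be technical. The procedure was also run on simulated data with few changed genes and independent normal noise. Those data lack the shared lowest values and the correlated replicates seen here, so that run does not vouch for the calls.

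A table of 31335 RefSeq genes matched 0 of the 23749 identifiers, so lists planned from gene descriptions, and sequences, are not reported. The 16 patterning genes are those of the study's figures whose identifiers earlier results gave, checked against the figure labels, and were all named (LOG3 and TMO5 were left out). Other identifiers were named by rule, the 2 largest rises and 2 largest falls among called genes of at least 5 log2 CPM in the higher stage whose libraries did not overlap. The members, lists and tests were chosen with earlier results of these data known. Alternatives were other filters, scalings, sets of libraries, variance models, a replicate block and leaving out each library.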

Additional observations from a re-analysis of the deposited data

How the results depend on the processing

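The share of calls higher at MAT (47.0%) was 47.9% with a filter at 2 log2 CPM, 48.9% on log2(CPM + 1), 62.0% with equal medians, 38.0% with antilogs rescaled to equal sums, 52.5% after quantile normalization and 45.4% to 46.2% with 1 LEL or MAT library left out. Tested against a change of 1 log2, 2265 genes passed (581 higher, 1684 lower, 25.7% higher). LEN against EEN was then tested against 1 log2 as well, and 32.8% of the large falls and 34.6% of all falls were lower in LEN. The share of all tested genes lower in LEN by that test was not taken, and the 30.9% of the ordinary test is no background for it. Against 1 log2, 972 genes differed between the last steps. That last count was 2885 to 5878 with 1 LEM, LEL or MAT library left out, the lowest without LEL replicate 1. On log2(CPM + 1), which understates changes of low genes, 151 genes rose and 520 fell by 2 log2, and CUC2 changed by -1.47. Quantile normalization left 35 genes switched off, and an upper level of 4 log2 CPM left 3 switched on and 12 off. The cause of these shifts was not tested. LOG4, which did not pass, was at -0.088 with rescaled antilogs and from -0.36 to 0.41 with 1 library left out, ZPR3 from -1.28 to 0.070, and WOX5 from -1.20 to 0.0014. KNAT1, FIL and MGP lost their call against a change of 1 log2 (adjusted p = 0.41, 0.92 and 0.23 from limma). STM passed on log2(CPM + 1) (adjusted p = 0.0073 from limma), with the 14 embryo libraries (0.033) and with the 4 libraries of LEL and MAT (0.025). PLT1 passed with the filter at 2 log2 CPM (0.049), on log2(CPM + 1) (0.017), with rescaled antilogs (0.024), with the 14 embryo libraries (0.017) and without a variance trend (0.012). Apart from ZPR3 and WOX5, which passed without MAT replicate 1, the other calls of named genes from LEL to MAT held under each alternative run. Calls of single genes on the step from LEM to LEL, or on the difference between steps, were not followed under the alternatives.

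Replicates 1 and 2 share a number across groups, and the differences between the replicates of LEL and MAT correlated over genes (r = 0.48, and r of 0.20 to 0.55 of LEL with LEM, EEN, LEN and SEC, but -0.12 to 0.06 with the earlier stages). Nothing in the labels says what a number marks. With a replicate block over all 20 libraries 12204 genes were called, with 346 large rises and 1286 large falls. A block in the 12 libraries of LEM, LEL, MAT, EEN, LEN and SEC, chosen after seeing the data, gave 11904 calls, 47.5% of them higher. Comparisons with EEN and LEN could not be fitted on embryo libraries alone, nor the difference between steps on the 4 libraries of LEL and MAT. The lists planned from descriptions were not run.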

Other observations

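The 10 highest genes held 6.82% and 5.20% of the summed CPM in the LEL libraries and 5.53% and 5.03% in the MAT libraries, which overlap, against 4.64% and 3.70% at LEM and 8.45% and 10.8% in LEN. Of the 100 genes highest at LEL, 77 were among the 100 highest at MAT. The replicates of LEL shared 87 of their 100 highest genes and those of MAT 95. By the chromosome number in the identifiers, 23.8% to 25.4% of the tested genes of each of chromosomes 1 to 5 were higher at MAT and 26.6% to 28.3% lower.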
